A study of Mus musculus with 20 samples.

Results

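The angiopoietin-Tie genes and a group of genes that hematopoietic stem cells share with endothelium were followed in LSK and MEP cells of *Bcor* and *Dnmt3a* mutant mice. These are 8 genes of the 24315 in each table, namely *Angpt1*, *Tek*, *Tie1*, *Adgrl4*, *Eng*, *Esam*, *Pecam1* and *Robo4*. They were chosen by the loss of *Adgrl4* and *Angpt1* RNA in *Bcor-/-Dnmt3a-/-* LSK, so the values of all 8 genes in that contrast are given as a description, without a test. RNA-seq was performed on LSK (Lin-Sca1+Kit+, stem and early progenitor) and MEP (Lin-Sca1-Kit+CD34-, megakaryocyte-erythroid progenitor) cells sorted from the bone marrow of C57BL/6 mice. Each cell type had 10 libraries, with 3 from wild type (WT) mice, 3 from *Dnmt3a-/-*, 2 from *Bcor-/-* and 2 from *Bcor-/-Dnmt3a-/-* mice. The alleles were conditional and were deleted with *Mx1*-Cre, an interferon-inducible Cre that acts beyond blood cells, after pIpC. The study describes its *Bcor-/-Dnmt3a-/-* RNA as that of leukemic mice with acute erythroid leukemia, so that in this group genotype and disease cannot be told apart. The study calls its WT controls mice without targeted genes, and the column names of the tables mark the mutant libraries, and no WT library, with Cre. The ages of the sequenced mice are not given in the labels. Every mouse gave both cell types, and in *Bcor-/-* 1 library per cell type is labelled with 2 mice, which may be a pool. Values are FPKM, a measure of RNA per transcript length and per number of mapped fragments, so levels of different genes are compared per length.

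*Angpt1* encodes angiopoietin-1, the ligand that activates the receptor tyrosine kinase Tie2, the product of *Tek*. *Tie1* encodes the related receptor that pairs with Tie2 and has no strong ligand of its own. In bone marrow, Tie2 marks quiescent stem cells, and angiopoietin-1 is made both by stem and progenitor cells and by stromal cells of the niche. The other genes encode cell surface proteins best known from blood vessels. *Adgrl4* (formerly *Eltd1*) encodes an adhesion G protein-coupled receptor, and *Eng* encodes endoglin, a co-receptor for TGF-beta family ligands that is also found on erythroid precursors. *Esam* encodes an adhesion molecule of endothelial junctions and platelets, *Robo4* a Roundabout receptor, and *Pecam1* encodes CD31, which is carried by endothelium, platelets and many leukocytes.

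The RefSeq promoter table of GRCm38.p6 held 5 of the 8 genes (*Adgrl4*, *Tek*, *Tie1*, *Robo4* and *Eng*), each with a window of 300 bases, from 250 before to 50 after the annotated start. The 4 windows printed here belong to the genes that were called lower in *Bcor-/-* LSK and have an entry. They are written 5′ to 3′ on the strand of the gene, and capitals mark matches on either strand to letters bound by transcription factor families well known in stem cells and endothelium. For GATA factors these were AGATAA, found in 11.2% of all windows, or TGATAA, in 9.05%. For ETS factors they were AGGAAG, in 35.4%, or CGGAAG, in 16.9%, and for E-box factors CAGCTG, in 16.3%, or CAGATG, in 17.2%. None of these motifs contains another.
Adgrl4, chr3:151437632-151437931, + strand: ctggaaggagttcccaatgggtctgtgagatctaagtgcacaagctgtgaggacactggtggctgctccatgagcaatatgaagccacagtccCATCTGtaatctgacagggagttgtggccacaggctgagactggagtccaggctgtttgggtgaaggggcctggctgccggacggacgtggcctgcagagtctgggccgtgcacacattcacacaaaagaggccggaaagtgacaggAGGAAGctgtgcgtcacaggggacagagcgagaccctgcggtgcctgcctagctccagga
Tek, chr4:94739039-94739338, + strand: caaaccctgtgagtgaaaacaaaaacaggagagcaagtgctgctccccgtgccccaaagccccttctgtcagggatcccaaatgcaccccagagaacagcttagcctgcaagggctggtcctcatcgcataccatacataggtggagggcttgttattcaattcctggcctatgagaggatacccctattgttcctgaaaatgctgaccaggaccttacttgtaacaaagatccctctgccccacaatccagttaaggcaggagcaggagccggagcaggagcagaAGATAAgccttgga
Tie1, chr4:118489800-118490099, - strand: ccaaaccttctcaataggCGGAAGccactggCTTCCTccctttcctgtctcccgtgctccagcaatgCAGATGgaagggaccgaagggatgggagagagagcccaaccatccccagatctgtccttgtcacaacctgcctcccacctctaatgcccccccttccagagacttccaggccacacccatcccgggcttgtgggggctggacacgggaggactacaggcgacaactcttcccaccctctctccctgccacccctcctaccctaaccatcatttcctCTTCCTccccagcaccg
Robo4, chr9:37401722-37402021, + strand: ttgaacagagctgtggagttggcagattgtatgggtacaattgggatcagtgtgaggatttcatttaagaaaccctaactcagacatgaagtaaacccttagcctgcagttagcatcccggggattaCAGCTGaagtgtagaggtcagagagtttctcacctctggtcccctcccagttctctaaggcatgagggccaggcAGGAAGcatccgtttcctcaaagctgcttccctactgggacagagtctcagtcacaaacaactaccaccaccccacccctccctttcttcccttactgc
An ETS motif (either spelling) was in 4 of the 5 windows, all but that of *Tek*, and in 46.5% of the 32851 promoter windows of the table. An E-box (either spelling) was likewise in 4 of 5, against 30.6% of all windows. The only GATA motif was in *Tek*, where AGATAA starts at base 287 of the window, and 18.6% of all windows held one. These matches are a description of the letters and no evidence that a factor binds.

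The sorted cells were checked against their markers. In WT, the 11 LSK markers (*Kit*, *Ly6a*, *Cd34* and others) summed to 1301 to 1514 FPKM in LSK and to 119 to 248 FPKM in MEP, and 10 erythroid markers to 115 to 186 and 3745 to 5200 FPKM. *Bcor-/-Dnmt3a-/-* libraries stood apart. Pearson's r across genes was 0.849 between both LSK libraries of this genotype and 0.815 between both MEP libraries, against at least 0.971 within every other group. *Kit*, the receptor used in both gates, had 47.7 and 19.4 FPKM in *Bcor-/-Dnmt3a-/-* LSK against 148 to 174 in WT, and the B cell markers summed to 2422 and 1121 FPKM against 39.5 to 81.6. Of the macrophage markers, replicate 1 of this genotype held 1448 FPKM in LSK and 759 FPKM in MEP, while replicate 2 held 57.8 and 17.0, and WT held at most 291 and 4.28. The RNA of *Bcor* itself lay below every WT LSK library in 3 of the 4 LSK libraries labelled as lacking it and above them in 1, at 22.4 to 37.4 FPKM against 29.5 to 32.4, and *Dnmt3a* RNA was also not absent. Values are per gene and not per exon, so they neither check a deletion of part of the gene nor settle the labels. Steps among low values placed the relative depth of the LSK libraries between 0.790 and 1.32 and that of the MEP libraries between 1 and 1.60, with WT replicate 1 of each cell type as 1. In bulk RNA, fewer cells of a type and less RNA per cell cannot be told apart, for every gene below.

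In WT LSK the 8 genes covered a wide range of levels. *Adgrl4* was highest with a mean of 250 ± 27.3 FPKM (SD, n = 3), followed by *Angpt1* with 141 ± 23.0. *Eng* (51.6 ± 5.09) and *Pecam1* (49.8 ± 8.15) did not differ beyond their spread. *Tie1* had 32.9 ± 5.94 FPKM. *Esam* (17.5 ± 3.64) and *Robo4* (14.1 ± 2.47) again lay within their spread of each other. *Tek* was lowest with 5.17 ± 0.462 FPKM, so that the ligand of the pathway was far more abundant as RNA than its receptor. In WT MEP the order was another one. *Eng* led with 54.9 ± 4.84 FPKM, close to its LSK level, and *Angpt1* followed with 25.5 ± 17.7. *Adgrl4* (9.53 ± 9.19) and *Pecam1* (8.95 ± 3.16) overlapped, and *Tie1* (3.42 ± 2.58), *Esam* (2.13 ± 1.45) and *Tek* (1.84 ± 1.12) overlapped as well. *Robo4*, with 0.396 ± 0.202 FPKM, fell below the minimum mean of 1 FPKM and was not tested in MEP. LSK and MEP were deposited as separate tables, so these levels are set side by side without a test. Over the 10773 genes tested in both tables, the median log2 difference between LSK and MEP in WT was 0.11.

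No change of these genes was detected in *Dnmt3a-/-* LSK. *Adgrl4* had 258, 249 and 263 FPKM in *Dnmt3a-/-* against 281, 231 and 237 in WT, and *Angpt1* had 150, 153 and 161 against 146, 116 and 161. *Tek* had 6.03, 5.31 and 5.70 FPKM against 5.22, 4.68 and 5.60. For all 8 genes the *Dnmt3a-/-* and WT values overlapped. At the thresholds of the study (p under 0.05 and a fold change above 1.5, here with limma's two-sided test on log2(FPKM + 1)), 0 of the 8 genes were called, where 0.443% of the 11952 tested genes were called in either direction. No member had an unadjusted p under 0.05, and the Benjamini-Hochberg adjusted p over all tested genes was 1 for each. The 95% interval of the log2 change was -0.91 to 1.21 for *Angpt1* and -0.36 to 0.59 for *Tek*, so changes within these bounds are not excluded.

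**Figure D1:**
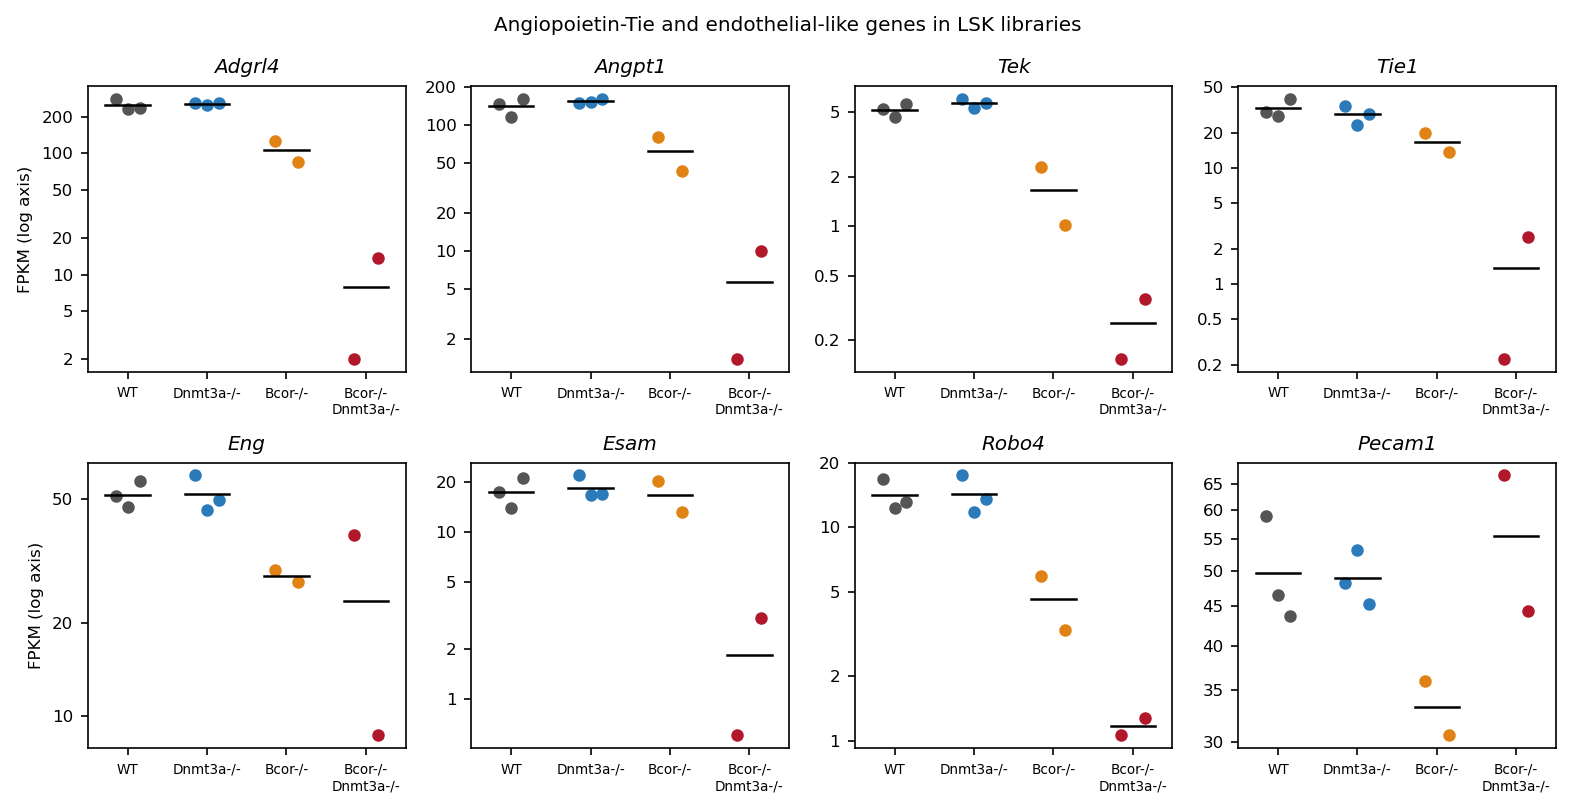
FPKM of the 8 genes in the 10 LSK libraries, on a log axis whose range differs between panels. Each point is 1 library and each line the mean of a genotype. *Bcor-/-* points lie below every WT point for all genes but *Esam*, and *Bcor-/-Dnmt3a-/-* points lie below those for *Adgrl4*, *Angpt1*, *Tek*, *Tie1*, *Esam* and *Robo4*, while *Pecam1* does not follow this order.

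Most of these genes were lower in *Bcor-/-* LSK. Of the 8 genes, 5 were called lower (*Adgrl4*, *Angpt1*, *Tek*, *Tie1* and *Robo4*) and 0 higher. Among all 11952 tested genes, 6.03% were called lower and 7.2% higher. The median log2 change of the 8 genes was -1.08, against -0.0071 over all tested genes. The WT libraries also entered the contrast that chose the genes, so these values are not independent of the choice. Libraries of *Bcor-/-* lay below every WT library for 7 genes, the exception being *Esam*.

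The ligand and both receptors had lower values in each *Bcor-/-* LSK library than in any WT library. *Angpt1* had 80.3 and 43.4 FPKM in *Bcor-/-* LSK against 146, 116 and 161 in WT, and fell by 1.23 on the log2 scale (SE 0.52, limma adjusted p = 0.19). *Tek* had 2.32 and 1.03 FPKM against 5.22, 4.68 and 5.60, and fell by 1.25 (SE 0.23, limma adjusted p = 0.022). *Tie1* had 20.04 and 13.9 FPKM against 30.7, 28.4 and 39.7, and fell by 0.93 (SE 0.39, limma adjusted p = 0.18). For each of the 3 genes *Bcor-/-* replicate 2 was the lower library.

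Of the surface genes, *Robo4* fell furthest, with 5.93 and 3.31 FPKM in *Bcor-/-* against 17.0, 12.3 and 13.1 in WT, or by 1.46 on the log2 scale (SE 0.24, limma adjusted p = 0.017). *Adgrl4* had 127 and 85.7 FPKM against 281, 231 and 237, and fell by 1.25 (SE 0.52, limma adjusted p = 0.18). Both *Bcor-/-* libraries were thus clear of WT, at a mean of 106 FPKM. *Eng*, with 29.6 and 26.9 FPKM against 50.9, 46.9 and 57.0, had a log2 change of -0.84 that did not pass (limma adjusted p = 0.29). *Pecam1*, with 36.0 and 30.6 FPKM against 59.0, 46.6 and 43.7, passed the p threshold (limma adjusted p = 0.11) but not that of the fold change, at -0.56. *Esam* had 20.1 and 13.2 FPKM against 17.4, 13.9 and 21.2, which overlap, with a log2 change of -0.07 and a 95% interval of -0.89 to 0.75.

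By the adjusted p, only *Tek* and *Robo4* of the 8 genes passed, where 1.87% of all tested genes were called lower. Those 2 were also called under every alternative in which they were tested. The calls of *Adgrl4*, *Angpt1* and *Tie1* were less firm. All 3 were lost with a pseudocount of 0.1, without the filter on low values and with the replicate number as a block. They were also lost when any 1 WT or *Dnmt3a-/-* library or *Bcor-/-* replicate 2 was left out. *Adgrl4* and *Tie1* were lost without *Bcor-/-* replicate 1 as well, *Angpt1* without the mean-variance trend and *Tie1* with a fold change above 2. The limma log2 changes of *Adgrl4*, *Angpt1* and *Tie1* over all left-out libraries were -1.53 to -0.97, -1.66 to -0.79 and -1.18 to -0.67. With groups of this size the smallest p of an exact permutation test is 0.1. With 1 variance per genotype, which keeps the wide spread of the *Bcor-/-Dnmt3a-/-* libraries out of the other groups, the limma adjusted p was 0.0046, 0.010 and 0.018 for *Adgrl4*, *Angpt1* and *Tie1*, and *Eng* was called as well.

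Markers of other cells moved in the same libraries. All 11 LSK markers had a negative log2 change in *Bcor-/-* LSK, and 4 of them (*Slamf1*, *Mecom*, *Flt3* and *Hlf*, genes of stem cells and early progenitors) were called lower. Their sum was 673 to 975 FPKM against 1301 to 1514 in WT. All 6 markers of granulocyte-monocyte progenitors were called higher, and their sum was 13002 to 21359 FPKM against 1581 to 3640. Of the 10 erythroid markers, 6 were called higher, with a sum of 535 to 931 against 115 to 186 FPKM. The stromal markers, whose cells also make *Angpt1*, summed to 12.2 to 14.7 FPKM against 25.9 to 30.8, of which *Pdgfrb* alone made 11.8 and 22.4 FPKM in the means. The part of these cells in the change of the 8 genes was not tested.

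Other genes of the same kind were taken from lists made of textbook knowledge, but with earlier results of these data known. Their counts are a description and no independent support. Of 18 further genes of the angiopoietin-Tie pathway, 13 were tested in LSK, and 2 were called lower and 0 higher in *Bcor-/-*, where 6.03% of all tested genes were called lower. The median log2 change of the 13 was -0.05, and none of them passed with the adjusted p. These were *Dok2*, an adaptor that binds activated Tie2, with a log2 change of -0.70 (limma adjusted p = 0.13), and *Foxo1*, a transcription factor held in check by Tie2 signaling through Akt, with -0.62 (limma adjusted p = 0.069). The other ligands *Angpt2* and *Angpt4* and the phosphatase gene *Ptprb* had at most 0.495 FPKM in any LSK library. Of 28 further genes that endothelium and stem cells share, 23 were tested and 5 were called lower. They were *Emcn* (endomucin, a sialomucin of vessels and stem cells, -1.58), *Selp* (P-selectin, -1.32), *Gata2* (a transcription factor of both lineages, -0.99), *Calcrl* (part of the adrenomedullin receptor, -0.96) and *Ecscr* (an endothelial surface protein, -0.92), the first 2 with limma adjusted p-values of 0.029 and 0.032. The median log2 change of the 23 genes was -0.55.

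Among the LSK libraries, those of *Bcor-/-Dnmt3a-/-* held the lowest values of most of the 8 genes. *Adgrl4* had 2.02 and 13.8 FPKM and *Angpt1* 1.39 and 9.89 FPKM, which are the values that led to the choice of these genes. On the scale of mean FPKM, *Adgrl4* was 31.5-fold and *Angpt1* 25.0-fold lower than in WT. The size depends on the library, since limma's log2 changes over all left-out libraries were -6.37 to -4.07 for *Adgrl4* and -5.88 to -3.69 for *Angpt1*. By limma's log2 change they had ranks 1 and 3 from the bottom of 11952 genes, at -5.22 and -4.78. *Cd34*, the surface antigen of progenitors and vessels, stood between them with -5.17, and *Slc22a3*, *Hlf* and *Myct1* followed with -4.50, -4.29 and -4.27.

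The receptors were low as well. *Tek* had 0.154 and 0.358 FPKM and *Tie1* 0.228 and 2.54 FPKM, or log2 changes of -2.30 and -4.01. The change of *Tek* is held back by the pseudocount of 1, since the ratio of its mean FPKM was 20.2-fold, against 23.8-fold for *Tie1*. These means are set mostly by replicate 2. In replicate 1 alone the genes were not close, with *Tek* at 0.154 against a WT mean of 5.17 FPKM and *Tie1* at 0.228 against 32.9. *Esam*, which overlapped WT in *Bcor-/-*, had 0.603 and 3.06 FPKM, a log2 change of -2.84. *Robo4* had 1.06 and 1.27 FPKM, a change of -2.79 that both libraries shared. *Eng* had 38.2 and 8.70 FPKM, so that 1 library lay near WT and the other far below it. *Pecam1*, with 66.6 and 44.4 FPKM, overlapped WT, with a change of 0.14.

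In this contrast 13.3% of all tested genes were called lower and 15% higher. For the 8 genes nothing is read from these shares, because the contrast served to choose them. Nor is anything read from them for the lists that follow, which were written with earlier results of these data known. Of the 23 further genes shared by endothelium and stem cells, 14 were past both thresholds on the lower side and 0 on the higher, among them *Cd34*, *Emcn* (-3.32), *Gata2* (-3.08), *Procr* (endothelial protein C receptor, -3.06) and *Itga2b* (an integrin of megakaryocytes and early stem cells, -2.31). Of the 13 pathway genes, *Foxo1* (45.8 and 36.5 FPKM against 4.49 to 5.04 in WT), *Grb7* (13.3 and 1.91 against at most 0.109) and *Dok1* (32.9 against 19.9 in the means) were past them on the higher side, and *Dok2* on the lower. *Grb7* passed the filter on low values only through the *Bcor-/-Dnmt3a-/-* libraries, so its place on the higher side follows from the filter. *Foxo1* is also a gene of early B cells, and the B cell markers were high in both libraries. Of the 11 LSK markers 8 were past both thresholds on the lower side, with a median log2 change of -3.06 and sums of 403 and 474 FPKM against 1301 to 1514. Of the 8 megakaryocyte markers 5 were past them on the lower side, with sums of 18.2 and 59.4 FPKM against 162 to 202. Erythroid markers, with 3190 and 8649 FPKM, and T cell markers, with 83.2 and 270 FPKM against 25.1 to 32.1, were higher in the same libraries, and the part of other cells in these levels was not tested.

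In WT LSK most of the 8 genes were well above the defining genes of endothelium, which were near the bottom of the scale. In LSK, 12 such genes (*Cdh5*, *Kdr*, *Flt1*, *Sox18* and others) summed to between 3.45 and 16.5 FPKM in the 10 libraries, less than *Robo4* alone in every WT and *Dnmt3a-/-* library, and 9 to 12 of the 12 were under 1 FPKM in every library. *Sox7* was listed at 0 throughout. *Cdh5*, the vascular cadherin, was at most 0.688 FPKM outside *Bcor-/-Dnmt3a-/-* replicate 2, which had 10.8 FPKM. The same library had 116 FPKM of stromal markers, most of it *Cxcl12* with 65.8, against 4.62 in replicate 1. In it *Adgrl4*, *Angpt1*, *Tek*, *Tie1*, *Esam* and *Robo4* were less low than in replicate 1. *Eng* (8.70 against 38.2 FPKM) and *Pecam1* (44.4 against 66.6) were lower in it. *Cd34* was also less low there (37.3 against 5.87 FPKM), and the sum of the LSK markers was 474 against 403. The part of stromal or endothelial cells in these values was not tested. In every MEP library 11 of the 12 endothelial genes were under 1 FPKM, though not the same 11 in each. The sum there was 2.52 to 11.2 FPKM, and in WT nearly all of it was *Plvap*, a gene of vessel diaphragms, with 6.91 to 7.95 FPKM.

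**Figure D2:**
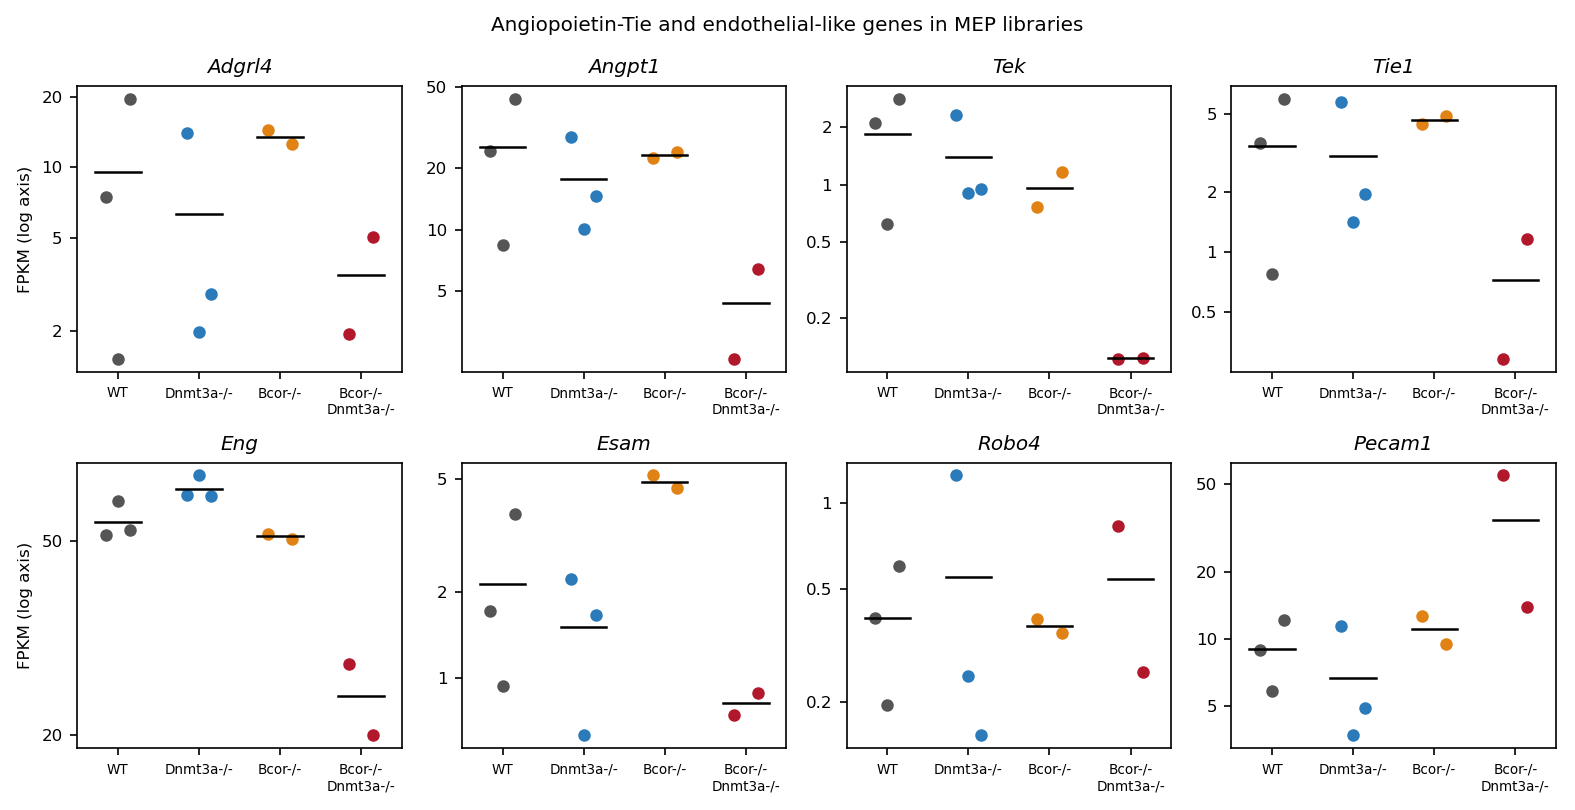
FPKM of the 8 genes in the 10 MEP libraries, on a log axis whose range differs between panels. Each point is 1 library and each line the mean of a genotype. WT and *Dnmt3a-/-* points spread widely for most genes, *Eng* is tight in all genotypes and lowest in *Bcor-/-Dnmt3a-/-*, and *Pecam1* is highest there.

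Most of these genes varied more between WT replicates in MEP than in LSK, which was not so in *Bcor-/-* or, for most of the genes, in *Bcor-/-Dnmt3a-/-*. In WT MEP, *Adgrl4* had 7.49, 1.53 and 19.6 FPKM, *Angpt1* 24.4, 8.43 and 43.8, and *Tie1* 3.56, 0.772 and 5.92. The highest WT library was 12.8 times the lowest for *Adgrl4* and 5.19 times for *Angpt1*, while the median gene of MEP had a ratio of 1.26 and the same 2 genes in WT LSK had 1.22 and 1.39. The order of the libraries was shared, since 7 of the 8 genes were lowest in WT replicate 2 and 7 of 8 were highest in WT replicate 3. So were the LSK markers, of which 10 of 11 were lowest in replicate 2 and 10 of 11 highest in replicate 3. All 10 erythroid markers were highest in replicate 2. In *Dnmt3a-/-* MEP, replicate 1 was highest for 7 of the 8 genes and for 10 of 11 LSK markers, and lowest for 10 of 10 erythroid markers. *Eng* was the exception, with 51.5, 60.4 and 52.7 FPKM in WT. The part of progenitors inside the MEP gate in these values was not tested.

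No effect of *Dnmt3a* loss on these genes was detected in MEP. Of the 7 genes tested 0 were called, against 0.412% of the 10933 tested MEP genes in either direction, and limma gave each an adjusted p of 1. *Adgrl4* had 14.0, 1.996 and 2.90 FPKM, which spans most of the WT range, and its 95% interval of -2.29 to 1.41 on the log2 scale is wide. *Eng* had 62.1, 68.2 and 62.0 FPKM, above every WT library, with a log2 change of 0.22 (limma adjusted p = 1).

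In *Bcor-/-* MEP 1 of the 7 genes was called higher and 0 lower, where 1.23% of all tested genes were called higher and 1.53% lower. *Esam* had 5.13 and 4.64 FPKM in *Bcor-/-* against 1.72, 0.936 and 3.75 in WT, and rose by 1.01 on the log2 scale (SE 0.40, limma adjusted p = 0.83). The call was lost with a pseudocount of 0.1 and when WT replicate 1, WT replicate 2 or either *Bcor-/-* library was left out, with changes over all left-out libraries of 0.71 to 1.36. In the same libraries 4 of 6 markers of granulocyte-monocyte progenitors and 1 of 8 megakaryocyte markers were called higher, the former with a sum of 335 to 570 FPKM against 28.9 to 245 in WT, and their part was not tested. The *Bcor-/-* replicates were close to each other for the genes that scattered in WT. *Adgrl4* had 14.5 and 12.5 FPKM, *Angpt1* 22.5 and 24.0, and *Tie1* 4.42 and 4.86, all within the WT range. *Tek*, with 0.762 and 1.17 FPKM against 2.09, 0.621 and 2.81, had a log2 change of -0.45 that did not pass (limma adjusted p = 1), although it was called lower without WT replicate 2.

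In *Bcor-/-Dnmt3a-/-* MEP 3 of the 7 genes were called lower and 1 higher. Of all tested genes 12.4% were called lower, or 11% with the adjusted p, and 18.5% higher. *Eng* had 28.1 and 20.01 FPKM against 51.5, 60.4 and 52.7 in WT, and fell by 1.17 on the log2 scale (SE 0.14, limma adjusted p = 0.0010). *Angpt1* had 2.33 and 6.41 FPKM against 24.4, 8.43 and 43.8, and fell by 2.15 (SE 0.65, limma adjusted p = 0.036). *Tek* had 0.122 and 0.124 FPKM against 2.09, 0.621 and 2.81, and fell by 1.25 (SE 0.41, limma adjusted p = 0.045). For these 3 genes, and for *Esam*, which was not called, no *Bcor-/-Dnmt3a-/-* library reached the lowest WT library. In the same libraries megakaryocyte markers summed to 25.7 and 78.6 FPKM against 99.8 to 366 in WT. The LSK markers summed to 350 and 105 FPKM against 119 to 248, and of the 9 tested 2 were called higher and 2 lower. Of 6 markers of granulocyte-monocyte progenitors 2 were called higher, with sums of 239 and 376 FPKM against 28.9 to 245. Erythroid markers summed to 3340 and 69229 FPKM against 3745 to 5200, so that replicate 2 stood far above WT and replicate 1 just below it. The sum of the endothelial-defining genes was 2.52 and 2.75 FPKM against 7.11 to 8.60, and *Plvap*, the only one of them tested in MEP, fell by 2.12 (limma adjusted p = 0.00038). T cell markers summed to 68.3 and 46.0 FPKM against 5.89 to 8.24. The part of these cells in the lower values was not tested. The MEP libraries were not used to choose the genes but came from the same mice as the LSK libraries.

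*Adgrl4*, *Tie1* and *Esam* were not called in *Bcor-/-Dnmt3a-/-* MEP. *Adgrl4* had 1.95 and 5.03 FPKM, which overlaps the WT values of 7.49, 1.53 and 19.6, with a log2 change of -0.85 (limma adjusted p = 0.49). *Tie1* had 0.289 and 1.16 FPKM and a change of -1.20 (limma adjusted p = 0.16), and *Esam* 0.743 and 0.889 FPKM and a change of -0.69 (limma adjusted p = 0.22). *Robo4*, not tested in MEP, had 0.828 and 0.255 FPKM, around the WT values of 0.393, 0.195 and 0.599.

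*Pecam1* went the other way in MEP. It had 54.3 and 13.9 FPKM in *Bcor-/-Dnmt3a-/-* against 8.94, 5.80 and 12.1 in WT, and rose by 1.58 on the log2 scale (SE 0.58, limma adjusted p = 0.068). The library with 54.3 FPKM was replicate 1, which also held 759 FPKM of macrophage markers and 1867 FPKM of B cell markers, against 17.0 and 121 in replicate 2. Their part in the *Pecam1* level was not tested. Without *Bcor-/-Dnmt3a-/-* replicate 1 the change of *Pecam1* was 0.64 and that of *Angpt1* -1.57, and neither was called, while *Eng* and *Tek* remained lower. Without WT replicate 2 the change of *Pecam1* was 1.33 and was not called, and *Tie1* and *Esam* were then also called lower, as they were after quantile normalization. In a limma fit with 1 variance per genotype *Eng* was the only one of the 8 genes called in this comparison.

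Of the other pathway genes none was called lower in *Bcor-/-Dnmt3a-/-* MEP beside *Angpt1* and *Tek*. Of 13 tested, 0 were called lower and 3 higher, where 12.4% and 18.5% of all tested genes were called, so that neither this list nor the next stands clear of the share over all genes on the higher side. The 3 were *Foxo1* (log2 change 1.94, limma adjusted p = 0.020), *Pik3r1* (a regulatory subunit of PI3K, 0.83, limma adjusted p = 0.043) and *Nck1* (an adaptor, 0.69, limma adjusted p = 0.10). Of 18 tested genes shared by endothelium and stem cells, 3 were called higher and 1 lower. *Lyl1* and *Fli1*, transcription factors of blood and vessels, rose by 1.29 and 1.27 (limma adjusted p = 0.0018 and 0.039), *Calcrl* rose by 1.07 (limma adjusted p = 0.058), and *Vwf*, which encodes von Willebrand factor of megakaryocytes and vessels, fell by 1.19 (limma adjusted p = 0.090). *Foxo1* was uneven here, with 30.1 and 5.90 FPKM.

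**Figure D3:**
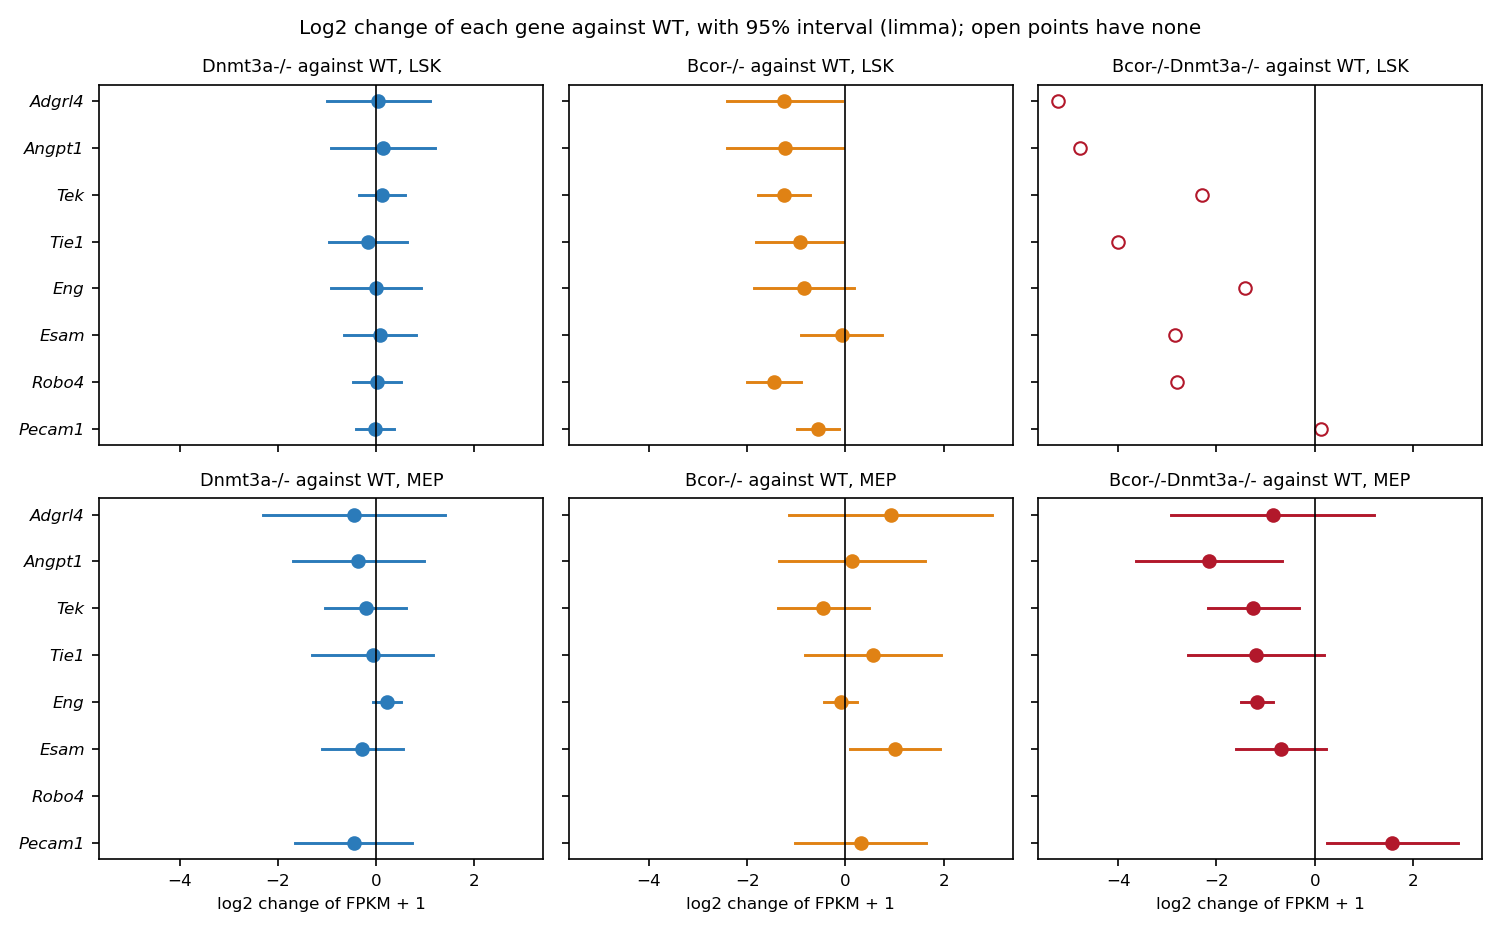
Log2 change of FPKM + 1 against WT for each gene, by genotype (columns) and cell type (rows). Filled points carry the 95% interval of limma, and the open points of *Bcor-/-Dnmt3a-/-* LSK, the contrast used to choose the genes, carry none. *Robo4* was not tested in MEP. Intervals in *Dnmt3a-/-* include 0 for every gene shown, and those of *Adgrl4*, *Angpt1*, *Tek*, *Tie1*, *Robo4* and *Pecam1* in *Bcor-/-* LSK lie below 0.

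The effect of *Bcor* loss was compared between cell types with the LSK minus MEP difference within each mouse. Of the 7 genes that passed the filter in MEP as well, 2 were called, both lower in LSK relative to MEP, where 5.78% of the 12112 tested genes were called lower and 6.19% higher. The difference was -1.49 for *Tie1* (SE 0.54, limma adjusted p = 0.20) and -1.08 for *Esam* (SE 0.44, limma adjusted p = 0.24). Neither passed with the adjusted p, and neither was called with a pseudocount of 0.1 or without *Bcor-/-* replicate 2. *Esam* was also lost without *Bcor-/-* replicate 1, WT replicate 1 or WT replicate 2, and *Tie1* without WT replicate 2. Other settings called more of the 7 genes. They were *Adgrl4*, *Angpt1*, *Eng*, *Esam* and *Tie1* after quantile normalization, *Adgrl4*, *Angpt1*, *Esam*, *Tek* and *Tie1* without WT replicate 3, and *Angpt1*, *Eng*, *Esam* and *Tie1* with 1 variance per genotype. Beside *Esam* and *Tie1*, *Angpt1* was called with the replicate block and without *Dnmt3a-/-* replicate 1, and *Adgrl4* without the mean-variance trend. *Eng* was added with only the compared genotypes and without either *Bcor-/-Dnmt3a-/-* library. *Robo4* entered only through its LSK level. In MEP it was under 1 FPKM in every WT and *Bcor-/-* library, so with a pseudocount of 1 its difference of -1.44 repeats its LSK change of -1.46 and is no test of the cell types. *Adgrl4* had a difference of -2.17 (limma adjusted p = 0.34) with a 95% interval of -4.73 to 0.38. For the *Dnmt3a-/-* genotype 0 of the same 7 genes were called, against 0.966% of all tested genes in either direction, and limma gave each an adjusted p of 1. The comparisons of the 3 mutant genotypes share the WT libraries, so their results are not independent of each other.

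**Figure D4:**
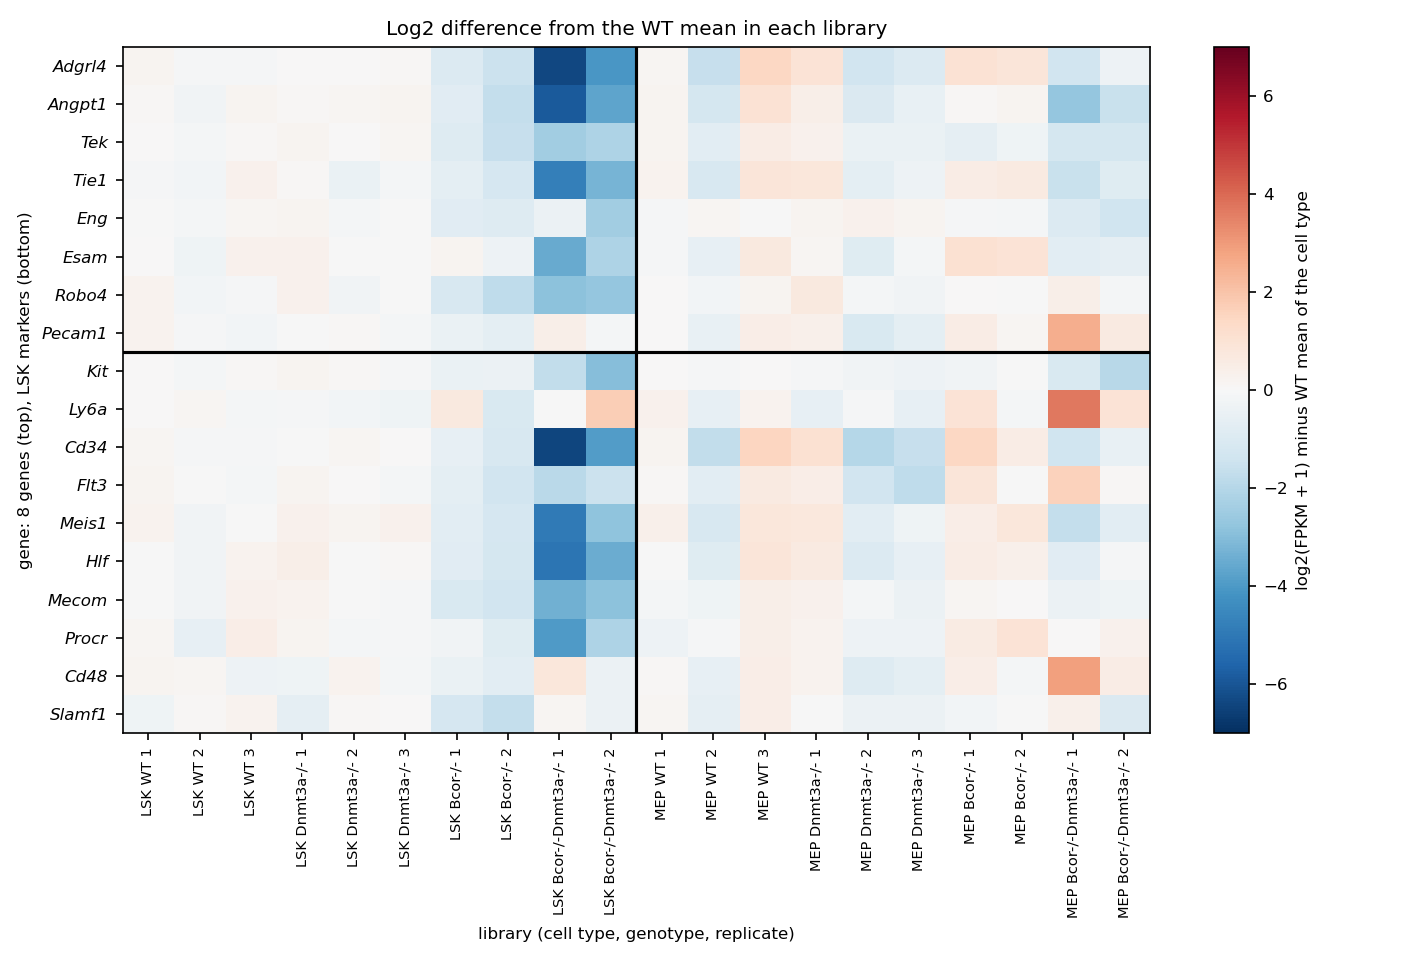
Log2(FPKM + 1) minus the WT mean of the cell type, for the 8 genes (above the line) and LSK markers (below it), in the 20 libraries. Blue is lower and red higher than WT. *Bcor-/-* LSK columns are blue for most rows, *Bcor-/-Dnmt3a-/-* LSK columns are darkest, with *Pecam1*, *Ly6a*, *Cd48*, *Slamf1* and, in replicate 1, *Eng* as exceptions, and in MEP the columns of WT replicates 2 and 3 have opposite colors for most genes.

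The genes whose pattern was most like that of *Adgrl4*, *Angpt1* and *Tek* were searched among 11951 others, by the root mean square difference of log2(FPKM + 1) over the 20 libraries after subtracting the WT mean of the cell type. This describes these libraries, which share mice and include the contrast used for the choice. *Adgrl4* was closest to *Cd34* (0.28), then to *Myct1* (0.47), *Hlf* (0.48), *Tie1* (0.54) and *Meis1* (0.55), and *Angpt1* came next with 0.56. Among the genes most like *Angpt1* were *Myct1* (0.39), *Slc22a3* (0.47), *Meis1* (0.48) and *Tie1* (0.49). *Tek*, whose low level leaves small differences, was closest to *Rgs18* (0.27), *Slc6a15* (0.29), *Hook1* (0.30), *Gstm7* (0.30) and *Arhgap6* (0.30), and *Robo4* was its nearest among the 8 genes at rank 190. *Pecam1* was far from *Adgrl4*, at rank 8257.

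The values of *Adgrl4* and *Cd34* are given side by side as a description, since *Cd34* was picked for its likeness over these same libraries and a narrow range of their ratio follows from that choice. *Adgrl4* ranged from 1.53 to 281 FPKM over the 20 libraries, or 184-fold, and *Cd34* from 4.46 to 650 FPKM, or 146-fold. The ratio of *Adgrl4* to *Cd34* stayed between 0.254 and 0.477, or within 1.87-fold. It was 0.433, 0.419 and 0.433 in WT LSK, 0.451, 0.383 and 0.452 in *Dnmt3a-/-* LSK, 0.324 in both *Bcor-/-* LSK libraries, and 0.344 and 0.371 in those of *Bcor-/-Dnmt3a-/-*. *Adgrl4* was lower relative to *Cd34* in all 4 LSK libraries that lack *Bcor* by label than in any WT or *Dnmt3a-/-* LSK library. The margin was narrow, at 0.371 against 0.383, and far smaller than the change of either gene. The *Bcor-/-Dnmt3a-/-* LSK values of *Adgrl4* had also served to choose the genes. MEP did not follow this order, with ratios of 0.281 to 0.323 for WT and 0.318 to 0.477 for *Dnmt3a-/-*. Without *Bcor* alone the MEP ratios were 0.254 and 0.418, and without both genes 0.278 and 0.366. In each pair replicate 1 lay below every WT MEP library and replicate 2 above. *Angpt1* kept a ratio to *Cd34* of 0.164 to 0.293 in LSK but of 0.332 to 2.40 in MEP. Only the *Bcor-/-Dnmt3a-/-* libraries of LSK, at 5.87 and 37.3 FPKM, lay in the *Cd34* range of MEP, and both tables may be scaled differently. *Tie1* had ratios of 0.0361 to 0.0723 in LSK and of 0.0412 to 0.323 in MEP. *Cd34* is also the antigen by which MEP were gated as negative, and its RNA in WT MEP, at 23.9, 5.43 and 60.6 FPKM, followed the same order of libraries as *Adgrl4*.

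**Figure D5:**
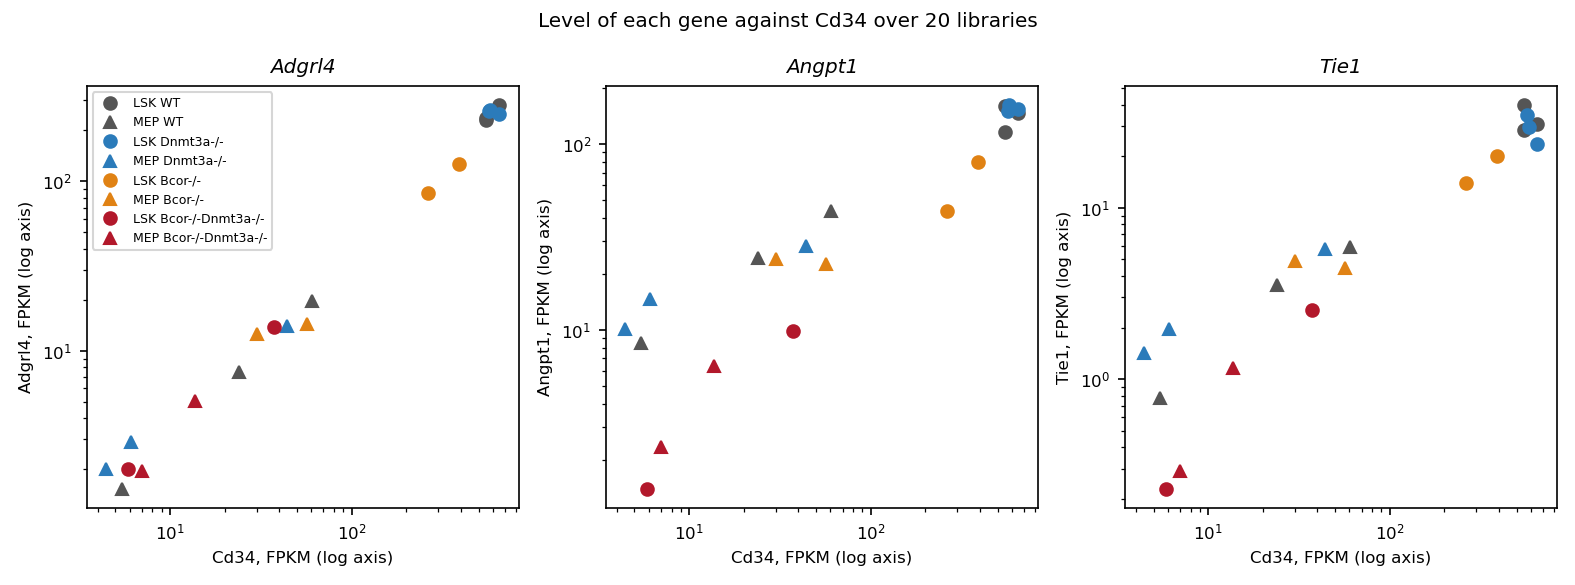
FPKM of *Adgrl4*, *Angpt1* and *Tie1* (vertical, log axis) against FPKM of *Cd34* (horizontal, log axis) in the 20 libraries. Circles are LSK and triangles MEP, colored by genotype. *Adgrl4* lies along 1 line in both cell types, with ratios from 0.254 to 0.477, while MEP triangles of *Angpt1* and *Tie1* lie mostly above the line of the LSK circles.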

How the data were processed

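The authors deposited 1 table per cell type with FPKM of 24315 genes in 10 libraries, made from polyA RNA of sorted LSK and MEP. The submitters' processing notes name STAR 2.5.1b, SAMtools 1.9, Cufflinks 2.2.1 and the build mm9. The roles of these tools, the annotation, the use of strand and the scaling between libraries are not given in the sources used here. In GENCODE vM21, exons of *Angpt1* overlap *Gm17473* and those of *Eng* overlap *Fpgs*, both on the opposite strand, so reads may be shared. Read counts are not given, so the absolute depth is unknown. A value of 0 can be a failed estimate.

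FPKM were used as deposited, as log2(FPKM + 1), keeping genes whose mean in the 10 libraries of 1 cell type reached 1 FPKM. All 4 genotypes entered a limma 3.58.1 model (R 4.3.3) with 1 mean per genotype and a mean-variance trend. Calls used the study's thresholds, unadjusted p under 0.05 and fold change above 1.5, and adjusted p-values are Benjamini-Hochberg values over all genes tested in that comparison. Effects were compared between cell types on the LSK minus MEP difference of each mouse. P-values measure the spread between libraries of different mice as labelled. The script was tested on simulated data.

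Named were the 8 genes, the genes of the fixed lists that were called (at most 5 per list and comparison, by size of change), and the 5 genes most like *Adgrl4*, *Angpt1* and *Tek*, of which 1 is not reported here. *Ptprb*, *Angpt2*, *Angpt4*, *Cdh5*, *Sox7*, *Plvap*, *Kit* and *Cxcl12* were named for their levels. The members and lists were chosen with earlier results of these data known. The ratio to *Cd34* was computed after *Cd34* had come out as most like *Adgrl4*. The alternatives were other pseudocounts, filters, scalings, thresholds and variance models, the replicate number as a block, and leaving out each library in turn. The ratio of mean FPKM and the unpaired comparison of cell types were added after seeing the data. Promoters came from RefSeq (GRCm38.p6), a build other than mm9, and no position in the FPKM tables was used. Plots were made in matplotlib 3.10.9 under Python 3.11.15.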

Additional observations from a re-analysis of the deposited data

Results flagged for a closer look

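3 of the 8 genes had a test of the difference between cell types past the thresholds, the LSK effect of *Bcor* loss minus the MEP effect, on the log2 scale. The difference was -1.49 for *Tie1*, -1.44 for *Robo4* and -1.08 for *Esam*. In 12112 genes tested, 5.78% were called in this direction. For *Tie1* and *Robo4*, the LSK values of *Bcor-/-* lay below every WT library, while for *Esam* they overlapped WT and the MEP values lay above every WT library. The limma adjusted p-values were 0.20, 0.13 and 0.24. *Robo4* was under the minimum of 1 FPKM in MEP and entered only through LSK, so its value repeats its LSK change and is no test of a difference between cell types.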

How the results depend on the processing

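Of the values for single genes under the alternatives, 1355 kept their direction and their side of the thresholds, 65 lost a call, 29 gained one, 9 without a test moved by more than the replicate spread and 37 changed sign, of which most were close to 0. The cause was not tested unless the setting itself names it, as with fewer genes or a stricter threshold. The absolute depth is unknown, so how far low values such as those of *Tek* and *Robo4* in MEP are limited by it cannot be given. The number of genes called in *Dnmt3a-/-* LSK (53) was 33 with a minimum of 5 FPKM, 105 with only the compared genotypes, 121 with 1 variance per genotype, 0 with the adjusted p and 19 with a fold change above 2, and in *Dnmt3a-/-* MEP (45) it was 29, 89, 78, 0 and 14, and 78 with a pseudocount of 0.1. In *Bcor-/-* LSK (1581) it was 690 with the adjusted p and 516 with a fold change above 2, and in *Bcor-/-* MEP (302) it was 7 and 118, 166 with a minimum of 5 FPKM and 482 with 1 variance per genotype. In *Bcor-/-Dnmt3a-/-* a fold change above 2 left 1973 of 3383 genes in LSK and 1727 of 3376 in MEP, where 1 variance per genotype gave 1980. For the LSK minus MEP effect of *Bcor* (1450) the adjusted p left 35 and a fold change above 2 left 540. For that of *Dnmt3a* (117) the count was 228 with a pseudocount of 0.1, 76 with a minimum of 5 FPKM, 195 with 1 variance per genotype, 0 with the adjusted p, 19 with a fold change above 2 and 57 with unpaired libraries. At an unadjusted p under 0.05 and any fold, *Dnmt3a-/-* had 156 genes in LSK, 225 in MEP and 438 for the difference. Leaving out each library in turn gave 35 to 113 genes in *Dnmt3a-/-* LSK, 885 to 1968 in *Bcor-/-* LSK, 3091 to 4730 in *Bcor-/-Dnmt3a-/-* LSK, 34 to 121, 199 to 442 and 2821 to 4566 in MEP in the same order, 823 to 1920 for the effect of *Bcor* and 97 to 217 for that of *Dnmt3a*.

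The sign of a log2 change turned in few other settings. In *Dnmt3a-/-* LSK, *Eng* was 0.0038 after quantile normalization, 0.0013 after median centring and 0.0032 as a ratio of mean FPKM. *Pecam1* in *Bcor-/-Dnmt3a-/-* LSK was -0.0037 and *Tie1* in *Dnmt3a-/-* MEP 0.044 after quantile normalization, and *Angpt1* in *Bcor-/-* MEP was -0.13 as a ratio of mean FPKM. Quantile normalization over all 20 libraries put the WT level of *Tek* in LSK at 4.06 FPKM and of *Robo4* in MEP at 0.745 FPKM. Over the left-out libraries, *Adgrl4*, *Eng*, *Esam*, *Pecam1* and *Robo4* in *Dnmt3a-/-* LSK ranged from -0.0092 to 0.13, -0.10 to 0.076, -0.063 to 0.22, -0.10 to 0.11 and -0.13 to 0.14. *Esam* in *Bcor-/-* LSK ranged from -0.36 to 0.21 and *Pecam1* in *Bcor-/-Dnmt3a-/-* LSK from -0.15 to 0.43. *Angpt1*, *Tek*, *Tie1*, *Adgrl4* and *Esam* in *Dnmt3a-/-* MEP ranged from -0.97 to 0.15, -0.57 to 0.044, -0.62 to 0.36, -1.24 to 0.27 and -0.58 to 0.072, and *Angpt1* in *Bcor-/-* MEP from -0.48 to 0.65. For the LSK minus MEP effect of *Dnmt3a*, *Tie1* ranged from -0.39 to 0.36, *Adgrl4* from -0.26 to 1.23 and *Robo4* from -0.23 to 0.081, and for that of *Bcor-/-Dnmt3a-/-*, *Eng* ranged from -1.03 to 0.52.

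Replicate numbers did not pair WT and *Dnmt3a-/-* libraries throughout. The deviations of libraries with the same number correlated at 0.018, 0.057 and -0.035 in LSK and at 0.19, 0.34 and -0.19 in MEP. WT replicates 1 and 2 of MEP correlated best with the *Dnmt3a-/-* library of their own number, while replicate 3 and the WT LSK libraries did not. With the replicate block the counts were 51, 1526 and 3225 in LSK for *Dnmt3a-/-*, *Bcor-/-* and *Bcor-/-Dnmt3a-/-*, 53, 315 and 3385 in MEP, and 1509 and 136 for the effects of *Bcor* and *Dnmt3a*, and not every library correlated best with its own number. Of the 8 genes, *Pecam1*, *Robo4* and *Tek* were called in *Bcor-/-* LSK with the block, and *Adgrl4*, *Angpt1* and *Tie1* were not.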
